A study of Mus musculus with 6 samples.

Results

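The autophagy machinery was examined as 40 of the 13007 genes in a table of gene counts from mouse bone marrow cells, chosen by name: every symbol that begins with Atg and a digit (1 excepted), Wipi, Gabarap or Map1lc3, together with 16 named kinases, lipid kinase subunits and cargo receptors. Acute erythroid leukemia cells (AEL, 3 libraries) were labelled Trp53-/- and ERG-expressing, and were leukemic marrow cells into which ERG, a transcription factor of the ETS family, had been introduced, sorted for the GFP that the vector also carries. Normal erythroid precursors (NC, 3 libraries) were labelled WT and were sorted from marrow stained for CD71 and Ter119, a transferrin receptor and a red cell lineage antigen. All cells were primary, of strain C57BL/6, and the source label of all 6 libraries, the WT ones included, names transformation by SETBP1 and ASXL1 mutations, a conflict that the labels do not settle. The groups were sorted on different markers, so differences due to the sort and to the leukemia cannot be told apart. The labels call the replicates biological but do not name separate animals. The p-values therefore cover only the spread among these samples, which for NC may be technical.

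Autophagy delivers cytoplasm and organelles to the lysosome. A kinase complex around ULK proteins starts it, a lipid kinase complex marks the membrane with phosphatidylinositol 3-phosphate, lipid transfer proteins enlarge the membrane, and ubiquitin-like proteins of the ATG8 family (the LC3 and GABARAP proteins) are attached to it, where they bind cargo receptors. In maturing red cells this route removes mitochondria, and in the mouse the receptor Bnip3l takes a central part in that step.

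The ATG8 family is shown first, since all of its 5 genes passed the test described below, as 52.8% of all genes tested did, though the call of Gabarapl2 ended without NC replicate 1 or 3. Before an ATG8 protein can be attached to lipid, an ATG4 protease trims it after a glycine near its end. The last 30 coding bases of each gene are given here from GENCODE M21 transcripts (GRCm38, all on the plus strand), 5′ to 3′ with the stop codon last, and with the last glycine codon in capitals.
Gabarap: tacagtgatgaaagcgtctatGGTctgtga
Gabarapl1: tacagtgatgaaagtgtctatGGAaaatga
Gabarapl2: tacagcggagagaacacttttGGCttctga
Map1lc3a: tacgcctcccaagaaaccttcGGCttctga
Map1lc3b: gagacattcGGGacagcaatggctgtgtaa
In Gabarap, Gabarapl1, Gabarapl2 and Map1lc3a 1 codon lies between that glycine and the stop, and in Map1lc3b 5 do. Over the aligned coding bases, Gabarap and Gabarapl1 were 74.9% identical and Map1lc3a and Map1lc3b 76.5%, and each of the other pairs was 53.4% to 63.8% identical. No pair within the family shared a stretch of 200 bases or more at 95% identity or above.

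Library totals ran from 8541477 to 9945330 counts in AEL and from 8171676 to 9385507 counts in NC. Values below are counts scaled to library size and given as CPM, with edgeR's TMM factors, and a value in brackets before an SE is the log2 fold change of AEL over NC. Trp53 stood at 976 to 1170 CPM in AEL, the group labelled Trp53-/-, and 162 to 177 in NC. The labels do not say which part of the gene is disrupted, and gene counts cannot show which part was read. These counts therefore do not settle the genotype. AEL stands throughout for the libraries so labelled. Erg stood at 556 to 790 CPM in AEL and 4.38 to 8.52 in NC. Erythroid markers were detected in both groups, with sums over 12 genes of 3810 to 11300 CPM in AEL and 45600 to 60900 in NC, and 10 of the 12 passed the test as lower. Markers of other marrow cells, megakaryocytes excepted, were also lower in AEL. Sums over 12 neutrophil genes were 17.9 to 1100 CPM in AEL and 7690 to 8970 in NC (11 of 12 lower), and sums over 12 monocyte and macrophage genes were 9.79 to 56.5 CPM in AEL and 3440 to 4040 in NC (12 of 12 lower), with Spic at 0 in AEL. Sums over 10 B cell genes were 1.69 to 2.74 CPM in AEL and 230 to 276 in NC (10 of 10 lower). Of 5 T and NK cell markers listed in these data, 4 were lower (0.225 to 0.915 CPM in AEL, 48.6 to 54.3 in NC), of 7 mast cell, basophil and eosinophil markers 4 were lower (1.24 to 19.5 CPM in AEL, 152 to 181 in NC, with Epx and Ccr3 at 0 in AEL), and of 7 stroma and endothelium markers 6 were lower (2.93 to 28.6 CPM in AEL, 90.7 to 110.0 in NC, with Col3a1 at 0 in AEL). Of 7 megakaryocyte markers 3 were higher and 2 lower (172 to 442 CPM in AEL, 113 to 133 in NC, with Gp1bb and Ppbp at 0 in AEL). These markers moved with every AEL and NC difference given below, and their part in it was not tested. In bulk RNA, fewer cells of a type and less RNA per cell cannot be told apart.

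Autophagy genes went both ways in AEL: the lipid transfer gene Atg2b, the receptor Optn and the ATG8 gene Gabarapl1 were higher, while the other ATG8 genes, Wipi1 and Wipi2, the proteases Atg4a and Atg4b and the receptors Sqstm1 and Nbr1 were lower. Of 39 genes tested, 5 rose and 13 fell (edgeR quasi-likelihood test, Benjamini-Hochberg adjusted p under 0.05 over 12427 genes). Of the 13 that fell, Atg16l2 passed the filter of 1 CPM in 3 libraries through its NC libraries alone. That is 12.8% higher and 33.3% lower, against 23.9% higher and 29.0% lower among all genes tested, and 46.2% in either direction against 52.8%. The median log2 fold change of AEL over NC was -0.15 over the 39 genes and -0.05 over all genes tested. The groups did not overlap for 20 of the 39 genes, or 51.3%, against 66.0% of all genes tested. AEL lay above NC for 5 of the 39 and below for 15 of the 39 (Atg16l2 included), against 29.9% and 36.1% of all genes tested. Of the 18 calls, 13 held in every alternative fit in which the gene was tested, Atg16l2 included, whose call adds nothing to its values. The other 5 (Gabarapl2, Atg101, Nbr1, Becn1 and Atg16l1) are named with their limits below. Scaling by library totals alone gave a median of 0.14 over all genes, where TMM scaling gave -0.05, and 55.2% of all calls were then higher, where TMM scaling gave 45.2%. It gave 6 rises and 10 falls among the 39 genes. The log2 fold changes of the 18 genes kept their sign under every alternative. Atg9b, a relative of the vesicle protein gene Atg9a, was too low to be tested, with 3, 1 and 0 counts in AEL and 3, 18 and 17 counts in NC. The count of 0 in AEL replicate 3 allows a level of up to 0.302 CPM before TMM scaling.

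**Figure D1:**
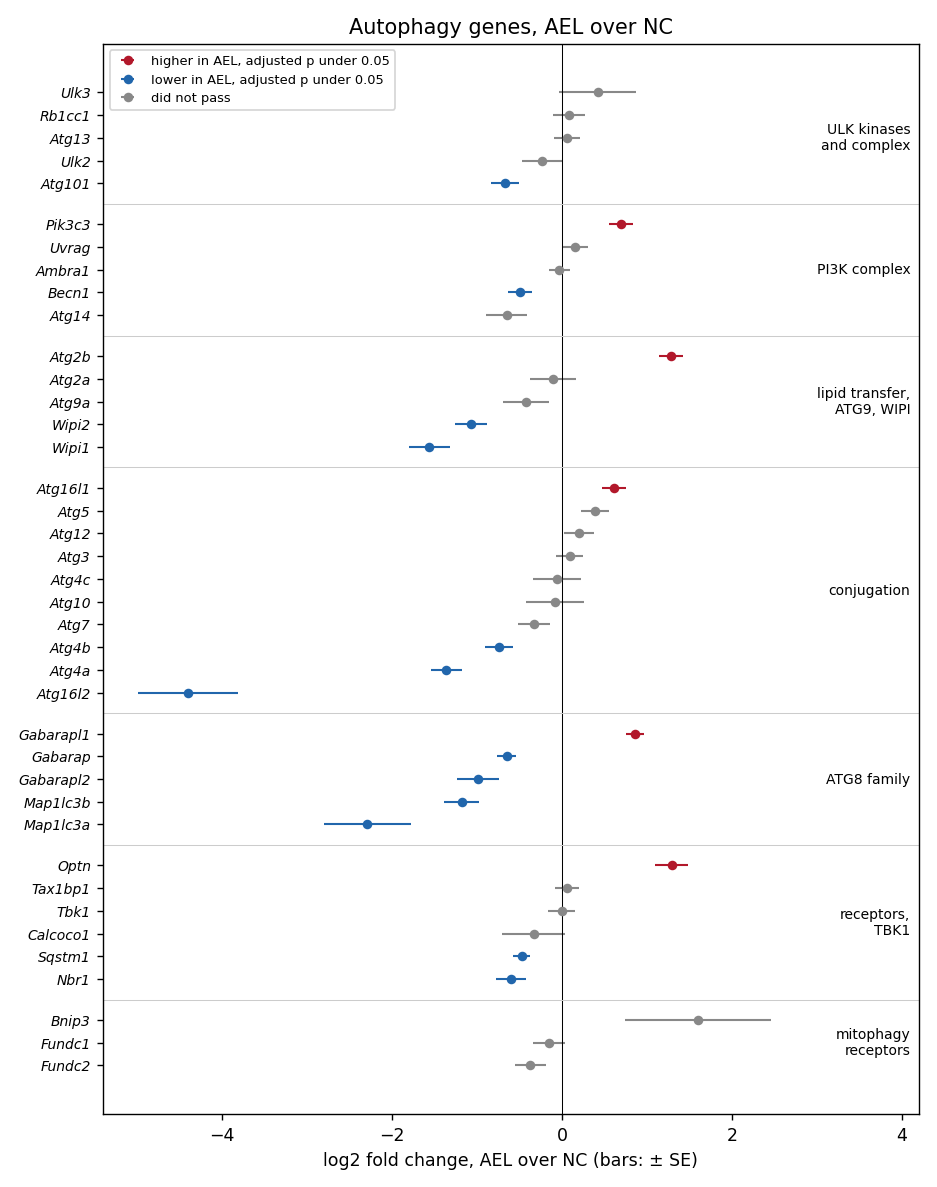
Log2 fold change of AEL over NC (x axis) for the 39 autophagy genes tested, grouped by role, with bars of ± SE; red points were higher and blue points lower in AEL at an adjusted p under 0.05, and grey points did not pass. The ATG8 family holds 1 red and 4 blue points, and Atg16l2 lies farthest to the left at -4.40.

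In the ATG8 family, Gabarapl1 rose and the other 4 genes fell. Gabarapl1 had 126, 141 and 122 CPM in AEL replicates 1 to 3, against 69.1, 74.9 and 70.2 in NC. The log2 fold change was 0.86 (SE 0.11, adjusted p = 0.00127). Gabarap, the founding GABARAP gene, had 154, 158 and 143 CPM in AEL, against 260, 221 and 232 in NC (-0.65, SE 0.11, adjusted p = 0.00322). The groups did not overlap for either gene, and the spread within each group was small. The Gabarapl1 transcript matches 1700101I11Rik, an overlapping gene on the opposite strand, over 379 of 1820 bases. Map1lc3b, the source of the widely used marker protein LC3B, had 58.1, 78.5 and 44.9 CPM in AEL, against 145, 126 and 142 in NC (-1.18, SE 0.21, adjusted p = 0.00387). Map1lc3a had 2.03, 2.28 and 6.77 CPM in AEL, against 21.9, 15.0 and 18.0 in NC (-2.29, SE 0.51, adjusted p = 0.00945). Map1lc3a was highest in AEL replicate 3, and every AEL library still lay below every NC library. Its log2 fold change was -3.05 without AEL replicate 3 and -1.45 by limma with a pseudocount of 5. Gabarapl2 had 18.8, 11.7 and 12.3 CPM in AEL, against 30.4, 24.5 and 30.1 in NC (-0.99, SE 0.25, adjusted p = 0.0151). The Gabarapl2 call ended without NC replicate 1 (adjusted p = 0.0649) or NC replicate 3 (adjusted p = 0.0622). It also has 3 annotated processed pseudogenes, Gm3724, Gm6051 and Gm5829, that match its transcript over 349 to 352 bases at 96.6% to 99.4% identity, so its counts are uncertain.

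Per kb of transcript, the order of levels in AEL was Gabarap (112 CPM per kb), Gabarapl1 (71.3), Map1lc3b (23.0), Gabarapl2 (8.50) and Map1lc3a (3.3). In NC it was Gabarap (176 CPM per kb), Map1lc3b (52.2), Gabarapl1 (39.2), Gabarapl2 (16.9) and Map1lc3a (16.5), and the last pair did not differ beyond the spread of their libraries. The place of Map1lc3b depends on its length. Over the union of its exons, 5182 bases, it stood at 11.7 CPM per kb in AEL and 26.5 in NC, below Gabarapl1 in both groups. Within each library, the ratio of Gabarapl1 counts to Gabarap counts, which no scaling between libraries changes, was 0.823, 0.890 and 0.857 in AEL, against 0.266, 0.338 and 0.303 in NC. Gabarapl1 made up 31.8% to 33.2% of the family's CPM per kb in AEL and 11.8% to 14.6% in NC, or 33.5% to 35.4% in AEL and 12.8% to 16.0% in NC with exon unions, a length chosen after seeing the data. Summed over the 5 genes, the family stood at 329 to 391 CPM in AEL and 461 to 526 in NC. The genes of these ratios and sums were compared after their values were known, so the ratios are given without a test.

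**Figure D2:**
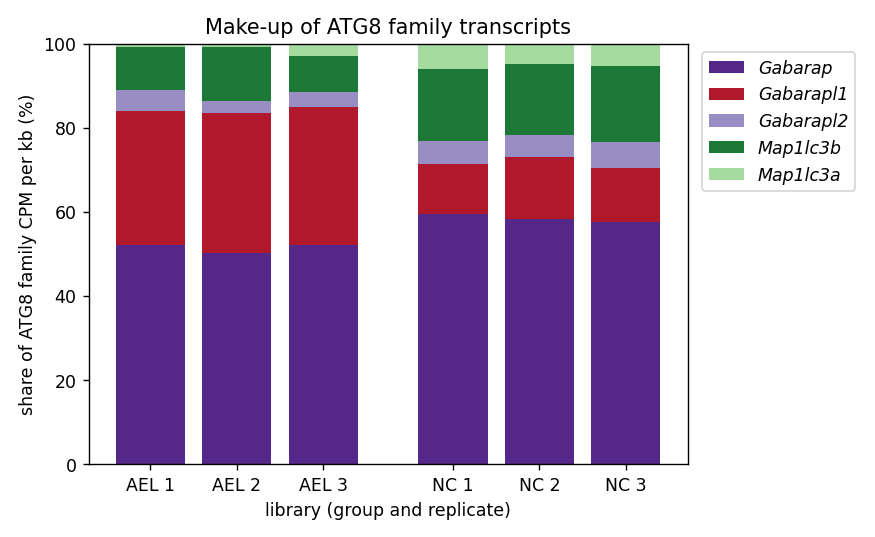
Share of the ATG8 family's summed CPM per kb of the longest coding transcript (y axis, %) taken by each of the 5 genes in each library (x axis), AEL libraries on the left. Gabarapl1 (red) takes 31.8% to 33.2% in AEL and 11.8% to 14.6% in NC, and Gabarap takes the largest part of every bar, 50.2% to 52.1% in AEL and 57.5% to 59.5% in NC.

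The promoters of the family member that rose and of 1 that fell are given from RefSeq (GRCm38.p6), 250 bases before to 50 after the annotated start. Matches to CCGGAAG, a long form of the ETS motif, are in capitals. That motif was searched because the AEL cells express ERG, an ETS factor, and shorter ETS sequences such as GGAA were not counted. The Gabarapl1 window is chr6:129532942-129533241 and the Gabarapl2 window chr8:111940453-111940752, both on the plus strand.
Gabarapl1 promoter: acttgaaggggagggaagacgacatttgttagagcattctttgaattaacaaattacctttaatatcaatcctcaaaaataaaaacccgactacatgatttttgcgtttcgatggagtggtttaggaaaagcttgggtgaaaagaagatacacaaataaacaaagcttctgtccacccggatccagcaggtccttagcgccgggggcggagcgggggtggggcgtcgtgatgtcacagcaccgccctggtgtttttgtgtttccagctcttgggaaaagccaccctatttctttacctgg
Gabarapl2 promoter: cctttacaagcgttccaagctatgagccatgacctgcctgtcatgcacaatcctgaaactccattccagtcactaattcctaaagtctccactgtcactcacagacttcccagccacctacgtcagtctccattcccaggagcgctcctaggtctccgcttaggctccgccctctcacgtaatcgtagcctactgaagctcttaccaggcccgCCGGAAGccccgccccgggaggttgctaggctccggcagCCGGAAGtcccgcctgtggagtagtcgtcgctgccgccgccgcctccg
The Gabarapl2 window holds 2 matches to CCGGAAG and the Gabarapl1 window none, though the shorter GGAA does occur in the Gabarapl1 window. The windows of Gabarap and Map1lc3b, which also fell, hold none either, and Map1lc3a has no window. RefSeq windows were found for 34 of the 40 genes, 38 windows in all. On either strand, CCGGAAG (or its complement CTTCCGG) was in 6 of the 38 windows (15.8%), against 17.7% of 11927 windows of all genes tested and 8.86% of 32851 windows of all genes. It was in 2 of 13 windows of genes that fell, those of Gabarapl2 and Atg101, and in 0 of 3 windows of genes that rose. The E-box CACGTG, its own complement and the core of sites bound by TFEB and by MYC, was in 6 of the 38 windows (15.8%), against 10.0% of windows of genes tested. All 6 belonged to genes that did not pass, Atg3, Atg5, Atg7, Atg14, Bnip3 and Tbk1. The motif AGATAA, bound by erythroid factors of the GATA family, was in 1 of the 38 windows, that of Atg4a, against 6.90% of windows of genes tested, and TGTTTAC, a FOXO motif, was in 0 of 38, against 2.52%. None of the motifs contains another, and a match describes letters only.

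Among the conjugation genes, which attach ATG8 proteins to lipid, 1 rose, 3 fell and 6 did not pass. Among all genes tested, 23.9% rose and 29.0% fell. The paralogs Atg16l1 and Atg16l2 went opposite ways. Atg16l1, which directs the ATG12 and ATG5 conjugate to the membrane, had 69.0, 83.1 and 66.5 CPM in AEL, against 48.1, 44.3 and 50.8 in NC (log2 fold change 0.61, SE 0.14, adjusted p = 0.0105), a call that ended without NC replicate 2 (adjusted p = 0.0520). Atg16l2 had 0.113, 0.868 and 0.457 CPM in AEL, or 1, 8 and 5 counts, against 12.9, 8.98 and 9.44 CPM in NC, or 100, 76 and 82 counts (log2 fold change -4.40, SE 0.59, adjusted p = 0.00145). All 3 AEL libraries lay under 1 CPM, so Atg16l2 passed the filter through NC alone and had to differ, and its test adds nothing to these values. The size of the fold depends on the low counts: the log2 fold change was -5.01 without AEL replicate 2, and -2.97 and -1.49 by limma with pseudocounts of 1 and 5. The erythroid, neutrophil, macrophage and lymphocyte marker sums given above were all lower in the same libraries, and their part in the Atg16l2 difference was not tested. Atg16l1 counts were 613, 95.8 and 145 times those of Atg16l2 in AEL replicates 1 to 3, against 3.73, 4.93 and 5.38 times in NC.

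ATG4 proteases trim ATG8 proteins and later release them from the membrane, and 2 of the 3 of their genes examined here fell. Of all genes tested, 29.0% fell. Atg4a had 24.9, 18.7 and 19.1 CPM in AEL, against 49.1, 52.6 and 58.6 in NC (-1.36, SE 0.18, adjusted p = 0.00131). A near-identical copy, Atg4a-ps, matches 2115 of the 2202 bases of its transcript at 99.3%, and part of Syt6 matches 508 bases, so the Atg4a counts are uncertain. Atg4b had 128, 130 and 87.3 CPM in AEL, against 199, 195 and 184 in NC (-0.74, SE 0.17, adjusted p = 0.0103). All AEL libraries lay below all NC libraries for both proteases. Atg4c stood at 12.3 ± 3.15 CPM in AEL and 12.9 ± 1.88 in NC (SD, n = 3 each, edgeR adjusted p = 0.874) and did not pass.

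The core enzymes of conjugation did not pass. Atg7, the E1-like enzyme, had 28.6 ± 5.78 CPM in AEL and 35.9 ± 1.59 in NC (SD, n = 3 each), with no overlap between the groups (log2 fold change -0.33, SE 0.19, edgeR adjusted p = 0.196). The E2-like genes Atg3 and Atg10 stood at 61.8 ± 4.85 and 2.99 ± 0.742 CPM in AEL, against 58.2 ± 9.67 and 3.16 ± 0.352 in NC (SD, n = 3 each). Atg12, the ubiquitin-like protein of the first conjugation, had 42.7, 52.0 and 64.9 CPM in AEL, against 46.0, 48.9 and 44.2 in NC (edgeR adjusted p = 0.384). Atg5, to which it is joined, had 39.9, 53.5 and 54.1 CPM in AEL, against 37.8, 40.5 and 34.7 in NC. The difference (log2 fold change 0.39, SE 0.17, adjusted p = 0.0949) passed with library totals alone (0.58, adjusted p = 0.0318) and without AEL replicate 1 (0.59, adjusted p = 0.0168).

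Of the genes of the initiating kinase complex, 1 of 5 passed, where 52.8% of all genes tested did. Atg101, an adaptor that binds ATG13, had 21.4, 20 and 22.8 CPM in AEL, against 35.7, 36.0 and 30.2 in NC (-0.67, SE 0.16, adjusted p = 0.0137). The Atg101 call ended with library totals alone (-0.48, adjusted p = 0.0532), with the replicate block (adjusted p = 0.0575) and without NC replicate 1 or 2 (adjusted p = 0.0689 and 0.0743). Atg13 and the scaffold gene Rb1cc1, which encodes FIP200, had log2 fold changes of 0.06 (SE 0.15) and 0.08 (SE 0.19). The kinase gene Ulk2 had 29.7, 51.4 and 32.5 CPM in AEL, against 43.7, 40.0 and 49.9 in NC (edgeR adjusted p = 0.438), and passed as lower without AEL replicate 2 (-0.47, adjusted p = 0.0478).

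In the lipid kinase complex the catalytic and the scaffold gene differed in direction. Pik3c3, which encodes the kinase VPS34, had 88.5, 68.5 and 81.9 CPM in AEL, against 52.7, 48.9 and 45.0 in NC (0.70, SE 0.14, adjusted p = 0.00677). Becn1, which encodes the scaffold Beclin 1, had 106, 118 and 84.2 CPM in AEL, against 145, 146 and 142 in NC (-0.49, SE 0.14, adjusted p = 0.0247). The Becn1 call ended with library totals alone (-0.31, adjusted p = 0.0914), without AEL replicate 1 (adjusted p = 0.0578) and without any 1 of the NC libraries (adjusted p = 0.0705 to 0.0818), and 29.6% of its exonic bases overlap Cntd1 on the opposite strand. Pik3c3 counts were 0.835, 0.583 and 0.972 of Becn1 counts in AEL, against 0.364, 0.336 and 0.317 in NC. Of the alternative subunits, Atg14, of the autophagy complex, had 15.3, 14.5 and 10.1 CPM in AEL, against 19.2, 21.1 and 22.3 in NC. The groups did not overlap, but the log2 fold change of -0.65 (SE 0.24) missed the threshold (edgeR adjusted p = 0.0537), and it passed under 6 other scalings, filters or tools, with adjusted p between 0.0284 (DESeq2) and 0.0494 (median-of-ratios scaling), and without AEL replicate 2 (0.0438). Uvrag, of the endosomal complex, and Ambra1, a regulator of Beclin 1, had log2 fold changes of 0.16 (SE 0.15) and -0.03 (SE 0.12). Ambra1 lay between 44.5 and 48.0 CPM in all 6 libraries. Parts of the Uvrag transcript match other transcripts at 95% or more, so its counts are uncertain.

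Among genes that enlarge and mark the membrane, Atg2b rose and Wipi1 and Wipi2 fell. Atg2b, a bridge that carries lipid into the growing membrane, had 237, 231 and 189 CPM in AEL, against 80.3, 92.4 and 97.6 in NC (1.28, SE 0.14, adjusted p = 0.000703), 2.43-fold higher with no overlap. Its exons share 383 bases with Gskip on the opposite strand, and Gskip stood at 26.9 ± 3.66 CPM in AEL and 14.3 ± 1.96 in NC (SD, n = 3 each). Its paralog Atg2a had 110.0, 112 and 55.9 CPM in AEL, against 94.5, 92.3 and 112 in NC (-0.10, SE 0.27, adjusted p = 0.768). The ratio of Atg2b to Atg2a counts was 2.15, 2.06 and 3.38 in AEL, against 0.850, 1.00 and 0.873 in NC. Wipi1, which binds phosphatidylinositol 3-phosphate, had 34.5, 30.6 and 18.4 CPM in AEL, against 82.8, 84.7 and 79.2 in NC (-1.56, SE 0.24, adjusted p = 0.00220). Wipi2, whose product recruits ATG16L1, had 130.0, 122 and 79.9 CPM in AEL, against 223, 228 and 245 in NC (-1.07, SE 0.19, adjusted p = 0.00398). The related WIPI family genes Wdr45b and Wdr45 did not pass, with log2 fold changes of 0.37 (SE 0.23, edgeR adjusted p = 0.213) and -0.07 (SE 0.31, edgeR adjusted p = 0.854). AEL replicate 3 was the lowest library for Wipi1, Wipi2, Atg2a and Atg9a. In that library the log2 deviation of Atg2a from NC was -0.82, beside a median of -0.86 for its chromosome 19. The medians for chromosomes 11, 5 and 1, which hold Wipi1, Wipi2 and Atg9a, were -0.02, 0.14 and 0.08. Atg9a, whose product is carried on the seed vesicles, had 90.1, 108 and 50.9 CPM in AEL, against 104, 106 and 124 in NC (edgeR adjusted p = 0.223), and shares 41.8% of its exonic bases with the annotated transcript Gm29253.

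**Figure D3:**
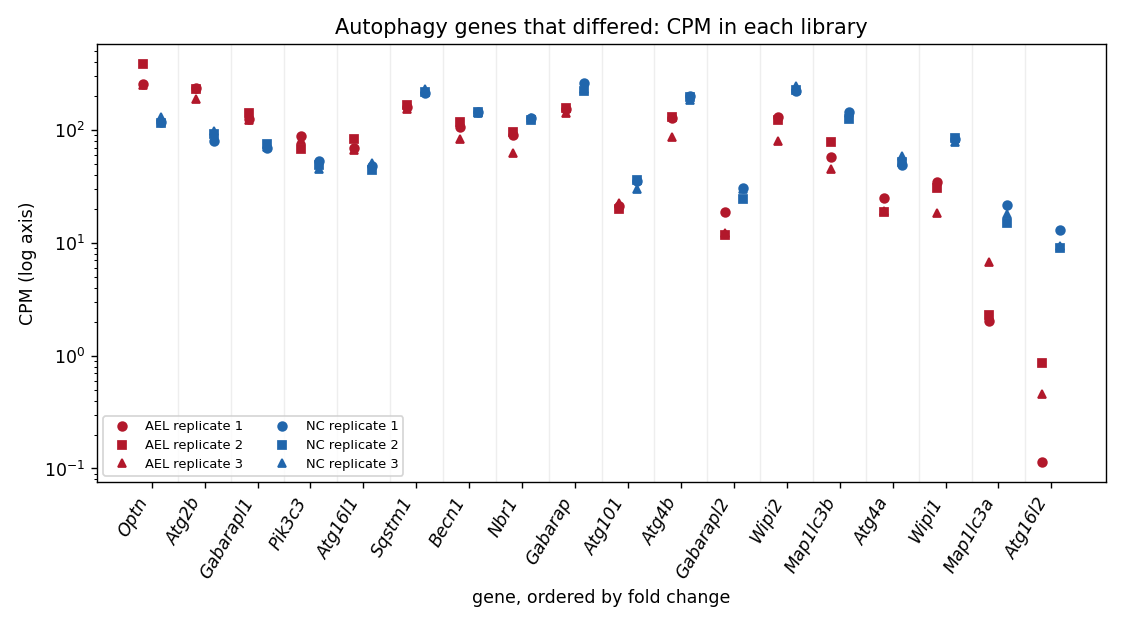
CPM on a log axis (y axis) of the 18 autophagy genes that passed the test, ordered by fold change (x axis), with AEL libraries in red left of NC libraries in blue and a marker shape for each replicate. For the first 5 genes, Optn to Atg16l1, the red points lie above the blue ones, and for the other 13 they lie below.

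Of the cargo receptors and their kinase Tbk1, Optn rose and Sqstm1 and Nbr1 fell. Optn encodes optineurin, which binds ubiquitin and ATG8 proteins. It had 257, 385 and 251 CPM in AEL, against 117, 116 and 132 in NC, 2.44-fold higher (1.29, SE 0.19, adjusted p = 0.00194). Sqstm1, which encodes p62, had 159, 167 and 154 CPM in AEL, against 215, 218 and 231 in NC (-0.47, SE 0.10, adjusted p = 0.00719). Nbr1, which encodes a partner of p62, had 91.2, 96.5 and 62.6 CPM in AEL, against 128, 124 and 128 in NC (-0.60, SE 0.18, adjusted p = 0.0252). The Sqstm1 call held throughout, though 20.5% of its exonic bases overlap Mrnip on the opposite strand. The Nbr1 call ended with library totals alone (-0.42, adjusted p = 0.0647) and without any 1 of the NC libraries (adjusted p = 0.0711 to 0.0788). The ratio of Optn to Sqstm1 counts was 1.62, 2.30 and 1.63 in AEL, against 0.544, 0.531 and 0.573 in NC. Per kb, Optn was the highest of the 6 genes in AEL, at 114 CPM per kb beside 62.1 for Tax1bp1 and 59.9 for Sqstm1. In NC Sqstm1 stood highest at 82.7 CPM per kb, beside 59.4 for Tax1bp1 and 46.5 for Optn. Tax1bp1, a receptor for ubiquitin-marked cargo, had 185, 242 and 186 CPM in AEL, against 183, 200 and 202 in NC (0.06, SE 0.14, adjusted p = 0.720). Tbk1, which phosphorylates optineurin and p62, had 58.3, 54.6 and 75.6 CPM in AEL, against 57.6, 67.1 and 64.1 in NC (adjusted p = 0.989). Calcoco1, a receptor for autophagy of the endoplasmic reticulum, had 39.0, 38.4 and 14.5 CPM in AEL, against 36.2, 35.9 and 43.3 in NC, so that AEL replicate 3 alone lay below NC (edgeR adjusted p = 0.480).

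None of the 3 mitophagy receptors passed with all libraries, where 52.8% of all genes tested did, and Bnip3 differed between AEL libraries. Bnip3, a mitochondrial outer membrane receptor known to respond to low oxygen, had 3.49, 27.9 and 3.57 CPM in AEL, against 4.51, 3.19 and 3.80 in NC. AEL replicate 2 stood 7.99 times above AEL replicate 1, while the other AEL libraries lay within the NC range, and the log2 fold change of 1.60 (SE 0.86, adjusted p = 0.158) rests on that library, being -0.07 without it. Bnip3 has near copies elsewhere, among them the pseudogenes Gm16439, Gm6532 and Gm9419, and overlaps the antisense gene Gm45507 over 27.2% of its exonic bases, so its counts are uncertain. Fundc1, another receptor of the outer membrane, had 18.9, 19.7 and 15.9 CPM in AEL, against 18.7, 21.5 and 20.4 in NC (edgeR adjusted p = 0.536). Its relative Fundc2 had 80.0, 120 and 84.3 CPM in AEL, against 133, 123 and 113 in NC (-0.37, SE 0.18, adjusted p = 0.123). Without AEL replicate 2 Fundc2 passed as lower (-0.54, adjusted p = 0.0144). Bnip3l, the receptor of mitophagy in red cells and no member of the set, had 258, 219 and 100 CPM in AEL, against 227, 239 and 249 in NC (-0.31, SE 0.32, adjusted p = 0.443), with AEL replicate 1 above and AEL replicates 2 and 3 below all NC libraries. Bnip3l lies on chromosome 14. Its log2 deviation from NC was 0.11, -0.12 and -1.24 in AEL replicates 1 to 3, beside chromosome medians of -0.02, -0.66 and -0.70.

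Autophagy genes varied more among AEL libraries than among NC libraries, and so did the genes tested as a whole. The SD of log2(CPM + 1) over the 3 libraries had a median of 0.301 in AEL and 0.111 in NC over the 39 genes, against 0.301 in AEL and 0.134 in NC over all genes tested. It was larger in AEL for 36 of the 39 genes, the exceptions being Atg3, Atg101 and Gabarap. The matching count over all genes tested was not made. The steadiest genes in AEL were Ambra1, Sqstm1 and Gabarap, whose highest library was 1.07, 1.09 and 1.11 times the lowest. Whole chromosomes also stood apart in single AEL libraries. Among genes averaging at least 10 CPM, the median log2 deviation from NC on chromosome 9 was -0.68 in AEL replicate 1 and -0.72 in AEL replicate 3, against 0.02 in AEL replicate 2. On chromosome 14 it was -0.66 and -0.70 in AEL replicates 2 and 3, on chromosome 19 it was -0.86 in AEL replicate 3, and on chromosome 3 it was 0.58 in AEL replicate 2. Atg2a, on chromosome 19, deviated by 0.15, 0.18 and -0.82 in AEL replicates 1 to 3, beside chromosome medians of 0.04, -0.05 and -0.86. Ulk3, a relative of Ulk2 on chromosome 9, deviated by 0.02, 1.13 and -0.42, beside medians of -0.68, 0.02 and -0.72, and had 11, 25.0 and 7.87 CPM in AEL, against 9.67, 10.9 and 12.2 in NC (edgeR adjusted p = 0.457). Atg14, on chromosome 14, deviated by -0.42, -0.49 and -0.98, beside medians of -0.02, -0.66 and -0.70. For Calcoco1 on chromosome 15 and Atg9a on chromosome 1, AEL replicate 3 deviated by -1.34 and -1.11 while the chromosome medians were 0.03 and 0.08. None of the 18 genes that passed lies on chromosome 3, 9, 14 or 19, and the median log2 fold changes of their chromosomes were -0.05 to 0.28. Pik3c3, on chromosome 18, was nearest to its chromosome, with a log2 fold change of 0.70 beside a median of 0.28, which left 0.43.

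**Figure D4:**
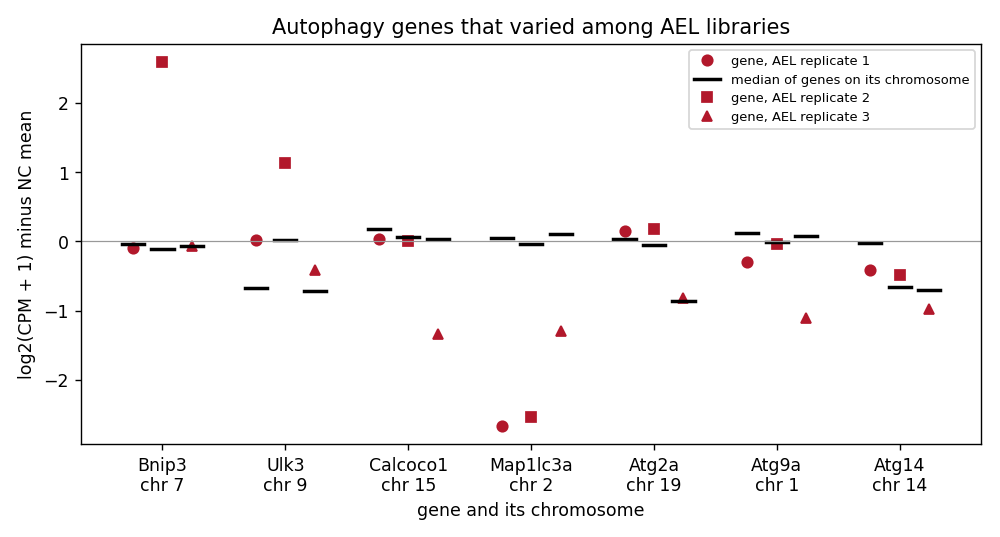
Deviation of log2(CPM + 1) from the NC mean (y axis) in each AEL library, by marker shape, for 7 autophagy genes chosen for their spread or chromosome (x axis); black bars are the median deviation of genes on the same chromosome in that library. Atg2a lies beside its chromosome median in all 3 libraries, while Bnip3 in AEL replicate 2 lies at 2.59, far from a median of -0.11.

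Genes around the core machinery also went both ways: of 58 tested in 5 lists of partners and regulators, 10 rose and 16 fell, or 17.2% and 27.6%, against 23.9% and 29.0% of all genes tested. Library totals alone gave 16 rises, and 10 fell without NC replicate 3. Retreg1 was not analysed here. Of the 26 calls, 16 held in every alternative. Of 9 transcription factors 2 rose and 2 fell, or 22.2% each way. Tfeb, an activator of lysosome and autophagy genes, had 2.03, 1.63 and 1.10 CPM in AEL, against 20.2, 26.7 and 23.4 in NC, 14.8-fold lower (-3.88, SE 0.32, adjusted p = 0.000314). By limma with pseudocounts of 1 and 5 it was -3.25 and -2.11. The erythroid, neutrophil, macrophage and lymphocyte marker sums were all lower in the same libraries, and their part in the Tfeb difference was not tested. Its relatives Tfe3 and Mitf did not pass, with 72.1 ± 26.8 and 9.03 ± 8.56 CPM in AEL, against 64.8 ± 3.88 and 6.21 ± 2.70 in NC (SD, n = 3 each). Hif1a, a factor of the response to low oxygen, rose (1.15, SE 0.20, adjusted p = 0.00361). Foxo3, a factor active in red cell maturation, had 241 ± 15.0 CPM in AEL and 274 ± 37.0 in NC (SD, n = 3 each, edgeR adjusted p = 0.263).

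Of 16 genes of kinase control 4 rose and 7 fell, or 25.0% and 43.8%, against 23.9% and 29.0% of all genes tested. Those that rose were Mtor and Rptor, of the growth kinase complex mTORC1 that restrains autophagy, and Tsc1 and Tsc2, whose complex restrains mTORC1. Rptor had 145, 127 and 149 CPM in AEL, against 53.1, 56.8 and 51.7 in NC (1.38, SE 0.12, adjusted p = 0.000333), and Tsc2 was 2.00-fold higher (adjusted p = 0.00183). The 7 that fell included 3 of the 5 LAMTOR genes, which anchor mTORC1 to the lysosome, Lamtor1, Lamtor2 and Lamtor4 (-1.24 for Lamtor4, SE 0.24, adjusted p = 0.00536). The others were Rheb, the AMPK subunit genes Prkab1 and Prkag1, and Stk11, which encodes the AMPK-activating kinase LKB1. A further AMPK subunit gene, Prkaa1, had 148, 136 and 150 CPM in AEL, against 116, 112 and 126 in NC (0.29, SE 0.10, adjusted p = 0.0513). The calls of Rheb and Stk11 ended with library totals alone (adjusted p = 0.225 and 0.0705), without AEL replicate 2 (0.108 and 0.0601) and without any 1 of the NC libraries (0.0651 to 0.130 for Rheb, 0.0896 to 0.113 for Stk11), and that of Rheb also with the replicate block (0.0678) and without AEL replicate 1 (0.0840). The Tsc1 call ended with the replicate block (adjusted p = 0.0615) and without NC replicate 1 or 2 (0.0779 and 0.0800). The Lamtor2 call ended with library totals alone (adjusted p = 0.0967) and when AEL replicate 1, AEL replicate 3, NC replicate 1 or NC replicate 2 was left out (0.116 to 0.129). Ulk1 had 104, 143 and 99.0 CPM in AEL, against 87.5, 108 and 120.0 in NC (edgeR adjusted p = 0.565).

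Of 13 genes of fusion with lysosomes 3 rose and 2 fell, or 23.1% and 15.4%, against 23.9% and 29.0% of all genes tested. Those that rose were Vps39, Vps33a and Vps41, whose products are subunits of the HOPS tether, and the Vps41 call ended without NC replicate 1 or 3 (adjusted p = 0.0724 and 0.0756). The HOPS genes Vps11 and Vps16 did not pass (log2 fold changes of -0.27 and 0.17, edgeR adjusted p = 0.543 and 0.262). Vps39 had 108, 92.2 and 133 CPM in AEL, against 39.2, 40.9 and 44.2 in NC (1.42, SE 0.16, adjusted p = 0.000856). A further HOPS gene, Vps18, fell (-0.69, SE 0.20, adjusted p = 0.0270), a call that ended with library totals alone (adjusted p = 0.0795) and without any 1 of the NC libraries (adjusted p = 0.0737 to 0.105). Of 11 other cargo receptor genes 1 rose and 3 fell, or 9.09% and 27.3%. Wdfy3, which encodes the aggregate adaptor ALFY, had 248, 199 and 198 CPM in AEL, against 62.5, 70.6 and 94.2 in NC (1.5, SE 0.19, adjusted p = 0.00109). Ncoa4, the receptor that delivers ferritin to lysosomes, had 46.8, 27.3 and 24.9 CPM in AEL, against 85.6, 116 and 112 in NC (-1.66, SE 0.27, adjusted p = 0.00283). Ncoa4 lies on chromosome 14, where the median log2 fold change was -0.44. Of 9 partners of the lipid kinase and lipid transfer steps none rose and 2 fell, or 22.2%, Tecpr1 (-1.37, SE 0.32, adjusted p = 0.0118, and 0.0542 without NC replicate 3) and Tmem41b (-0.95, SE 0.16, adjusted p = 0.00286).

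**Figure D5:**
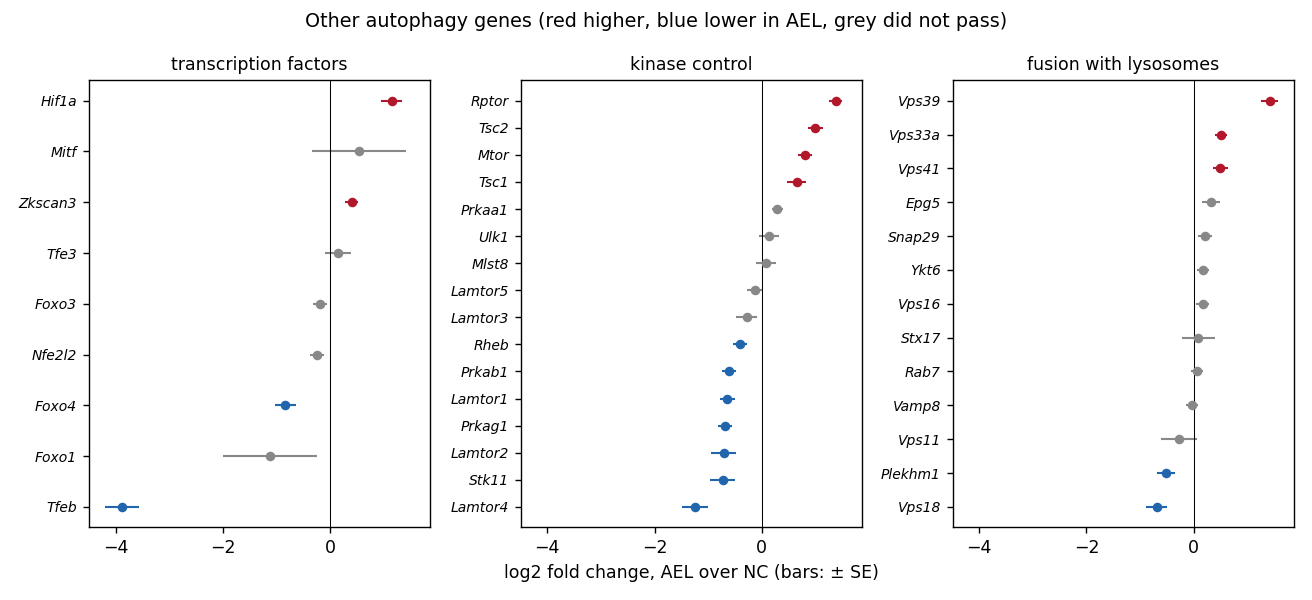
Log2 fold change of AEL over NC (x axis, bars ± SE) for the transcription factor, kinase control and lysosome fusion lists, red for genes higher and blue for genes lower in AEL at an adjusted p under 0.05 and grey for the rest. Tfeb lies at -3.88, and Rptor and Vps39 lead their lists at 1.38 and 1.42.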

How the data were processed

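Per the labels' protocols, RNA of sorted cells was purified by poly-T beads, fragmented and reverse transcribed with random primers, for 3 AEL and 3 NC libraries. The deposited table is named CPM, but its values are whole-number counts per gene that sum to a different total in each library. The submitters' processing notes list mm10 and edgeR 3.32.1 without a role. No source used here gives the aligner, the counting tool or the strandedness, so reads of a gene and of an overlapping gene on the opposite strand may not be separated. All 13007 genes exceeded 1 CPM in at least 2 libraries. No 2 libraries were alike within sampling noise (chi-square per degree of freedom 43.9 to 55.2 within AEL, 4.72 to 8.61 within NC).

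Counts were tested with edgeR 4.0.16 (R 4.3.3) by quasi-likelihood with TMM scaling, group as the single term, a filter that kept the 12427 genes reaching 1 CPM in 3 or more libraries, and Benjamini-Hochberg adjustment. Standard errors were derived from the log2 fold change and its F statistic. Alternatives were limma 3.58.1, DESeq2 1.42.0 (an adjusted p of NA stayed NA), other scalings, filters, a replicate block and each library left out. The test was also run on counts simulated with the fitted dispersions. These were the same in both groups, so that run does not cover the unequal spread of AEL and NC libraries. Floors of 3 counts cover counting error only.

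Levels per kb use the longest coding transcript of GENCODE M21. Chromosomes and promoters come from RefSeq GRCm38.p6, where all 40 symbols matched. Near copies were sought with BLAST 2.17.0 (95% identity over 200 bases), and 4 of the 40 genes have one outside overlapping genes. Full values are given for the ATG8 and receptor genes and for the largest rises and falls, and others were named after their values were seen. The genes and lists were chosen with earlier results of these data known.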

Additional observations from a re-analysis of the deposited data

How the results depend on the processing

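The autophagy genes tested gave 4 to 6 rises and 9 to 16 falls when single libraries were left out, and 5 to 6 rises and 10 to 14 falls under the other alternatives. The 9 falls came without NC replicate 1, where 4612 genes changed in all, 41.5% of them higher. The 16 falls came without AEL replicate 2, where 7296 genes changed in all, 46.3% of them higher. With library totals alone 6881 genes changed in all, 6 of the 39 rose and 10 fell, and 16 of the partners and regulators rose, against 10 with TMM scaling. Leaving out single libraries gave 4612 to 7296 changed genes in all, and 7 to 13 rises and 10 to 20 falls among the partners and regulators. The lowest of these falls came without NC replicate 3. With a replicate block, 5479 genes changed in all, with 5 rises and 12 falls among the 39 genes and 8 rises and 14 falls among the partners and regulators. Libraries of the same number did not deviate together (correlations of 0.0824, -0.0167 and -0.0314). With 3 libraries per group and far more variation in AEL, this cannot tell whether the samples were paired. Without a filter on low counts Atg9b also passed (-3.30, adjusted p = 0.0317), on counts of 3, 1 and 0 in AEL and 3, 18 and 17 in NC. Atg16l2 has no value under the 10 CPM filter. No log2 fold change changed sign among the 18 autophagy genes that passed or the 26 partners and regulators that passed, 10 of which missed the threshold under at least 1 alternative. Leaving out an NC library leaves 2 NC libraries to 3 AEL libraries, and AEL libraries varied more, with a biological coefficient of variation of 44.4%, against 9.16% among NC libraries. Low counts limit Atg9b, Atg10, Atg16l2 and Map1lc3a. The causes of these changes were not tested.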
